A study of Mus musculus with 28 samples.

Results

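H3K27ac was compared between NMuMG cells after 24h and after 4h of TGF-β, both in the presence of the MEK inhibitor UO126. NMuMG is an epithelial cell line of the mouse mammary gland that undergoes EMT under TGF-β, and 1 subclone of it, NMuMG/E9, was used. The comparison rests on the 3 libraries labelled ERKi 24h and the 3 labelled ERKi 4h, which are 6 of the 15 libraries with peak lists and of the 28 samples of the study, and which were chosen by their labels alone. All 6 cultures received UO126 at 25 µM 30 min ahead of TGF-β at 2 ng/ml, so the groups differ in the hours spent in TGF-β and inhibitor, and neither group was without the inhibitor. The libraries at 4h and 24h of TGF-β with the solvent DMSO in place of UO126, and those at 0h without TGF-β, 3 of each, are given beside the ERKi values. The sources used here do not say that replicates came from separate cultures, so the p-values measure only the spread between these libraries, which may be technical. Peaks of the 15 libraries that overlapped were merged into 89050 regions, and 72236 of them held a peak in at least 1 of the 6 ERKi libraries.

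H3K27ac is a histone mark of promoters and enhancers in use, and a change in it is read as a change in the activity of the element. TGF-β acts through receptor kinases and Smad proteins, which switch on targets such as Smad7 and Ctgf and arrest epithelial cells, while MEK activates ERK, which feeds the AP-1 factors and drives cells into the cycle. Genes of mitosis are switched on late in the cycle through CCAAT boxes, bound by NF-Y, and CHR elements near their start sites, and genes of DNA replication are switched on earlier, mainly through E2F sites.

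The ERKi 4h libraries held 56211, 57660 and 64815 peaks in replicates 1, 2 and 3, and the ERKi 24h libraries 64660, 56042 and 69180, in the order used for all values below. The difference in number was within the spread of the groups (two-sided exact permutation test, p = 0.7, where 3 libraries against 3 cannot go below 0.1), and the lists hold no read totals. ERKi 24h replicate 2 stood apart: it shared more of its regions with ERKi 4h replicate 1 (Jaccard index 0.742) than with the other ERKi 24h libraries (0.696 and 0.655), so leading counts are given with and without it. The epithelial identity of the cells was checked by peaks within 1 kb of the start sites of 11 markers, and Cdh1, Krt8, Krt18, Krt19, Krt7 and Grhl2 had one in all 6 libraries. Epcam, Cldn3, Cldn7 and Esrp1, which also mark epithelia, had none in any of them, and 23 of 24 markers of blood, endothelial, fibroblast, muscle, fat, nerve and liver cells had none either.

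Introns held 40.6% ± 0.306 of the summits at ERKi 4h and 41.8% ± 0.837 at ERKi 24h (SD, n = 3; exact permutation test, p = 0.1, the smallest possible). Promoters, which reach from 1000 bp before a start site to 100 bp after it, held 18.3% ± 0.849 and 16.9% ± 2.12 (exact permutation test, p = 0.4). Intergenic regions held 34.3% ± 0.839 and 34.6% ± 1.62 (exact permutation test, p = 0.9). Peaks covered 36.0 ± 3.03 and 39.5 ± 7.24 Mb (exact permutation test, p = 0.5).

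Levels were compared as percentiles, since the lists are not normalised to each other. The fold enrichment and p value of a peak fix the number of fragments at its summit, the pileup, and the percentile of a region is the place of its highest pileup among the 50000 highest peaks of that library, from 0 for no such peak to 100. A percentile is a rank, so it shows which regions moved relative to others and not whether acetylation rose or fell over the whole genome. In all 6 libraries 28282 regions were ranked, and these could be tested with limma, while regions that were lost or gained altogether are counted separately. Without regard to replicate numbers, 0 regions were higher and 0 lower at an adjusted p under 0.05 (0.0% and 0.0%, with 2073 and 1703 at an unadjusted p under 0.05). Libraries with the same number deviated together in all 3 pairs, so the number was used as a block, although the sources do not say that it marks a shared batch. Under that block 1389 regions (4.91%) rose and 1034 (3.66%) fell from 4h to 24h. Without replicate pairs 1, 2 and 3 the blocked counts were 636, 2824 and 517 higher and 354, 2166 and 330 lower. Ranked by fold enrichment in place of pileup, 0 regions passed in either direction even with the block (2079 higher and 2301 lower at an unadjusted p under 0.05), although 79.0% of the 1210 rising and 82.1% of the 845 falling regions so ranked had the same sign. All adjusted p-values of regions below are from limma with this block, adjusted over all 28282 regions.

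The regions that fell lay near start sites more often than those that rose. Within 1 kb of a start site, 119 of 11880 regions (1.0%) rose and 379 (3.19%) fell. Farther away, 1270 of 16402 (7.74%) rose and 655 (3.99%) fell. Groups of 3 did not overlap in 2793 regions (9.88%) with ERKi 24h higher and in 2416 (8.54%) with ERKi 24h lower.

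The largest falls at start sites were at genes of cell division. Of the 12 largest falls among regions that passed and did not overlap between groups, 9 lay within 1 kb of the start of Ccnb1, Clspn, Ube2c, Cit, Kifc1, Fam83d, Ckap2, Kifc5b and Ccna2. The region at Ccnb1, which encodes cyclin B1, the activator of the mitotic kinase Cdk1, stood at percentiles of 84.7, 76.5 and 76.2 at ERKi 4h and of 38.0, 10.4 and 23.0 at ERKi 24h. It fell by 55.4 ± 4.84 percentile points (SE, with adjusted p = 0.00755), and no ERKi 24h library reached the lowest ERKi 4h library. With DMSO it stood at 89.6, 73.3 and 66.2 at 4h and at 81.3, 65.5 and 63.5 at 24h, so that there the groups overlapped, although the 24h library was the lower one in 3 of 3 replicate numbers.

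Ube2c, the ubiquitin-conjugating enzyme of the anaphase-promoting complex, had percentiles of 93.4, 89.7 and 92.4 at ERKi 4h and of 51.7, 30.7 and 29.1 at ERKi 24h, a fall of 54.7 ± 5.2 points (adjusted p = 0.00755). Cit, the citron kinase of cytokinesis, had 85.6, 77.5 and 72.9 and then 30.3, 30.7 and 12.1, a fall of 54.3 ± 4.35 points (adjusted p = 0.00755). In both the groups were apart by more than the range within either. Clspn, the replication checkpoint adaptor claspin, had 71.8, 65.5 and 65.9 and then 31.3, 5.03 and 1.37, with the lowest values in replicates 2 and 3 (fall of 55.2 ± 5.55 points, adjusted p = 0.00755). Ccna2, cyclin A2, began higher, at 95.3, 91.6 and 91.3, and stood at 56.5, 44.5 and 36.1 at ERKi 24h (fall of 47.0 ± 4.43 points, adjusted p = 0.00755). Fam83d, a spindle protein, had 87.1, 83.9 and 79.1 and then 47.7, 32.2 and 17.3. Ckap2, which binds spindle microtubules, had 80.8, 76.5 and 84.3 and then 45.2, 27.3 and 24.1. Kifc1 and Kifc5b encode near-identical kinesins whose reads the alignment may have split, so their falls of 53.2 and 48.2 points are uncertain.

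**Figure D1:**
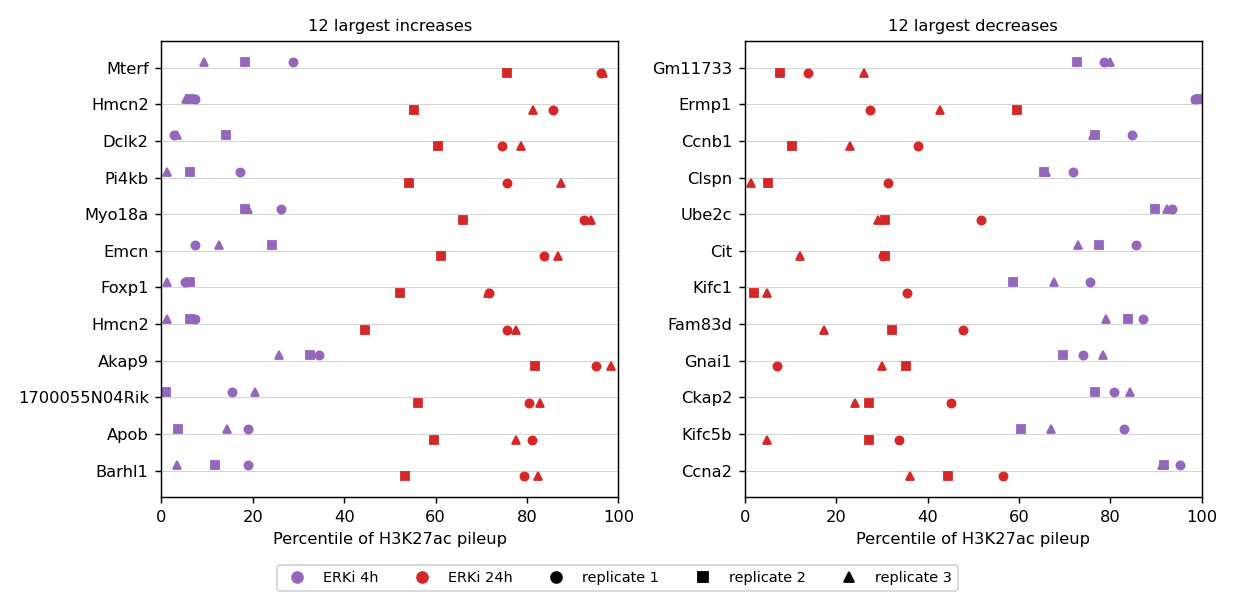
Percentile of H3K27ac pileup (x axis, 0 to 100) of the 12 regions with the largest increases (left) and decreases (right) from ERKi 4h (purple) to ERKi 24h (red), named by nearest gene, with 1 symbol shape per replicate. No red point lies among the purple points of its row, and in the left panel replicate 2 is the lowest red point in every row.

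Because these genes shared a role, 72 genes of mitosis and 46 of DNA replication were listed after the values had been seen, and they are described without a test of the lists. Mitosis genes had 68 ranked regions within 1 kb of a start, at 56 genes, and 38 of them (55.9%) fell while 0 rose, against 3.66% of all regions and 3.19% of those near start sites. In 63 of the 68 the difference was below 0, with a median of -24.1 points. When the genes already seen among the largest falls were left out, 27 of 54 regions fell. Without replicate pairs 1, 2 and 3, 29 of 68, 46 of 70 and 35 of 78 fell. DNA replication genes had 49 such regions at 40 genes, and 22 (44.9%) fell while 0 rose, with a median of -17.6 points. Without replicate pairs 1, 2 and 3, 12 of 49, 29 of 52 and 16 of 54 of these fell. By -log10 p with the block, 29 of 74 mitosis regions and 5 of 50 replication regions fell. Ranked by fold enrichment with the block, the medians were -13.6 and -7.28 points and 0 regions of either list passed.

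The mitosis genes that fell covered the kinases and cyclins, the spindle and the kinetochore. Among the regulators, Cdk1 fell by 34.4 points (adjusted p = 0.0275), Plk1, the polo-like kinase, by 26.6 (adjusted p = 0.0212) and Aurkb, the kinase of the chromosomal passenger complex, by 32.4 (adjusted p = 0.0291). Incenp, its scaffold, fell by 33.8 points (adjusted p = 0.0116). Of the kinetochore genes, Cenpf fell by 46.4, Nuf2 by 44.5, Spc24 by 42.5, Spc25 by 38.5 and Cenpm by 31.1 points. Of the genes that shape chromosomes and the spindle, Ncapg of condensin fell by 46.0, Tpx2 by 45.5, Top2a by 43.0 and Prc1 by 40.7 points. Mki67, the proliferation antigen Ki-67, fell by 36.3 points (adjusted p = 0.00755). Regions that did not pass included those of Birc5 (4.33 points), Cdca2 (3.49), Tacc3 (-1.49), Smc2 (-1.27) and Kif11 (-2.66).

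Among replication genes, claspin, the helicase Blm and the E2F factors E2f7, E2f8 and E2f2 fell furthest. E2f8 stood at 87.6, 82.4 and 83.4 at ERKi 4h and at 45.8, 40.8 and 29.1 at ERKi 24h (fall of 45.9 ± 4.44 points, adjusted p = 0.00755). E2f2 stood at 68.1, 64.0 and 59.6 and then at 25.2, 15.2 and 13.5 (fall of 45.9 ± 3.94 points, adjusted p = 0.00755). Blm, the helicase of Bloom syndrome, stood at 78.7, 67.6 and 45.1 and then at 21.7, 19.5 and 9.26, replicate 3 being lowest at both times. Of the subunits of the replicative helicase, Mcm5 fell by 33.0, Mcm3 by 28.2, Mcm6 by 27.5, Mcm4 by 24.8 and Mcm2 by 15.7 points, while the 2 regions of Mcm7 differed by -1.05 and 4.17 and did not pass. Rrm1 fell by 20.6 and Tyms by 24.9 points, both enzymes of nucleotide supply. Pcna (-5.23) and Fen1 (1.67) did not pass.

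Set out by library, the median percentile of the 68 mitosis regions was 85.2, 76.5 and 75.2 at ERKi 4h and 57.7, 56.6 and 35.7 at ERKi 24h. It was 88.0, 77.3 and 78.6 at 0h, 82.8, 77.2 and 74.1 at DMSO 4h and 75.6, 71.8 and 65.03 at DMSO 24h, so the ERKi 24h libraries were the lowest of the 15, while ERKi 4h replicates 2 and 3 were slightly below the lowest 0h library. For the 49 replication regions the medians were 86.7, 73.3 and 79.6 at 0h, 76.9, 66.3 and 60.2 at ERKi 4h and 58.9, 57.1 and 35.3 at ERKi 24h, and DMSO gave 80.4, 73.3 and 70.2 at 4h and 76.9, 68.6 and 66.5 at 24h. ERKi 4h was thus below DMSO 4h at replication genes in each replicate. Over all 11880 regions near start sites the median lay between 69.05 and 81.54 in every library, and ERKi 24h (79.7, 79.3 and 70.5) was close to ERKi 4h (80.5, 80.7 and 71.0) in each replicate.

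**Figure D2:**
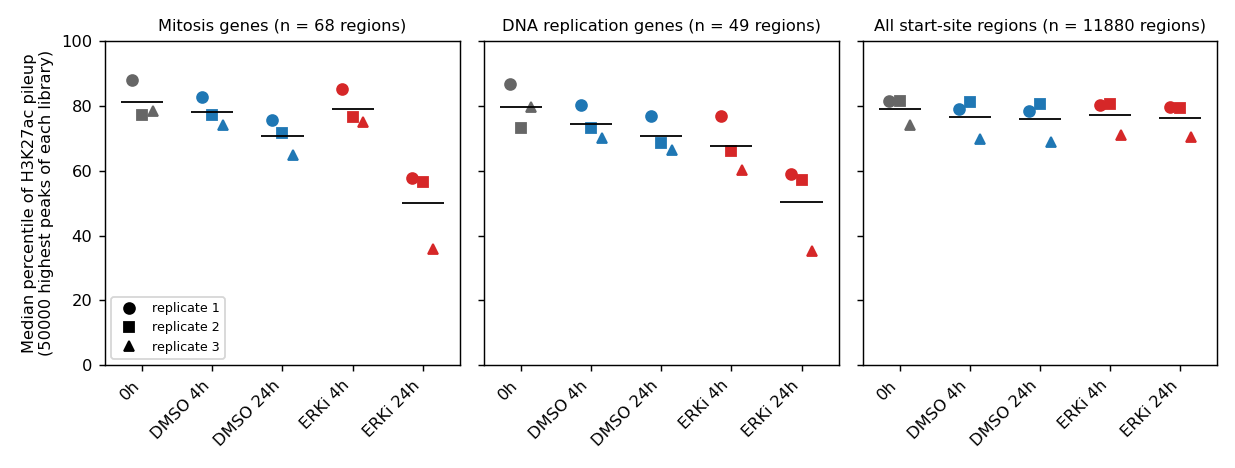
Median percentile of H3K27ac pileup (y axis) of regions within 1 kb of the start sites of mitosis genes, DNA replication genes and all genes, in each of the 15 libraries by condition (x axis), with 1 symbol shape per replicate and a line at the mean of 3. ERKi 24h is lowest in the first panels (35.7 to 57.7 and 35.3 to 58.9), while the third panel is level.

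Promoter sequences are shown for the 5 genes of the mitosis list whose start regions fell furthest, to let the reader see the elements that the mitosis genes share. Each runs from 250 bases before to 50 after the start site in mm9, 5′ to 3′ on the strand of the gene, and capitals mark CCAAT boxes (CCAAT or ATTGG) and CHR elements (TTTGAA or TTCAAA). They lie at chr13:101556308-101556607 on the minus strand (Ccnb1), chr2:164595153-164595452 on the plus strand (Ube2c), chr17:34027435-34027734 on the minus strand (Kifc1), chr2:158593579-158593878 on the plus strand (Fam83d) and chr5:116295403-116295702 on the plus strand (Cit).
Ccnb1: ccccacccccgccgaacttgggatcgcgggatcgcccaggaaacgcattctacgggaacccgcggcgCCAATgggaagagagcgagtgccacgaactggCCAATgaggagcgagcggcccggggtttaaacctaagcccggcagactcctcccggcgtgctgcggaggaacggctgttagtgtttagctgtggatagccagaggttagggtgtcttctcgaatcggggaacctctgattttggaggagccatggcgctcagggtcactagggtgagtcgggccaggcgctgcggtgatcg
Ube2c: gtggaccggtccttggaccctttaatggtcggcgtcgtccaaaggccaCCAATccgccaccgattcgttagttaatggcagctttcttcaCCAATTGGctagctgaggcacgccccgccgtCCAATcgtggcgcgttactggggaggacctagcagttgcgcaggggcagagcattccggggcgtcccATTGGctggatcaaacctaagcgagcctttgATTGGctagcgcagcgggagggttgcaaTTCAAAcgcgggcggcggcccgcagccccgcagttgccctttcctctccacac
Kifc1: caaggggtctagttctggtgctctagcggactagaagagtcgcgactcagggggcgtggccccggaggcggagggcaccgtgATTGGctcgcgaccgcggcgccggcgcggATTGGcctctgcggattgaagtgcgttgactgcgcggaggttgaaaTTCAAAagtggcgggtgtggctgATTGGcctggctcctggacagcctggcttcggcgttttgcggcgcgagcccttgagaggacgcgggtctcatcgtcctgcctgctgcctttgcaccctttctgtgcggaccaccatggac
Fam83d: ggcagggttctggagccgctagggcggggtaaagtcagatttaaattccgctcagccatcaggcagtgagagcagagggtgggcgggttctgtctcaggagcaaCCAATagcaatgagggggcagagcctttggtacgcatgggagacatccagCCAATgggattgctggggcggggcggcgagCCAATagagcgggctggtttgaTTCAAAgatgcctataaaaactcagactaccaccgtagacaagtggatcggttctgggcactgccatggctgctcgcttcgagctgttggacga
Cit: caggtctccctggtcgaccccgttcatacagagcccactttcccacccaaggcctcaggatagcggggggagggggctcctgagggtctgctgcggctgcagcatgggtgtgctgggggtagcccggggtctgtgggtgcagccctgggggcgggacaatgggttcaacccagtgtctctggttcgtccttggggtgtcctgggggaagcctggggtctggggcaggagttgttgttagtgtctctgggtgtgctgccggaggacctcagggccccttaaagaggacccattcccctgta

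The Ccnb1 promoter held 2 CCAAT boxes and no CHR letters in this window, Ube2c held 6 CCAAT matches and 1 CHR, Kifc1 and Fam83d 3 and 1 each, and Cit none of either, at the start site that the annotation gives. Over the lists, CHR letters stood in 69.6% of 56 mitosis promoters, 10.0% of 40 replication promoters and 9.41% of the 9422 promoters of genes with a ranked region at the start. E2F letters (TTCCCGC or GCGGGAA) stood in 5.36%, 37.5% and 9.16%. CCAAT stood in 69.6%, in 26 of 40 and in 34.4%. Of the 254 promoters of genes that fell and were in neither list, 19.7% held CHR, 15.7% E2F and 40.6% CCAAT letters. Of the 83 promoters of genes that rose, 18.1% held CHR, 6.02% E2F and 30.1% CCAAT letters. The CHR share outside the lists was thus close to that of the genes that rose. The CHR and E2F letters were added after the values had been seen. None of these motifs contains another, although their ends can share a base, and a match is not a bound site.

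The next comparison asks where the change over time differed between the inhibitor and DMSO. For each region ranked in all 12 TGF-β libraries (25076), the change from 4h to 24h under ERKi was compared with that under DMSO by an interaction term, again with limma. Without the block 0 regions were higher and 0 lower (0.0% and 0.0%, with 1128 and 480 at an unadjusted p under 0.05). With the block 293 (1.17%) changed upwards relative to DMSO and 106 (0.423%) downwards. Leaving out 1 replicate pair gave 0 and 0 without pair 1, 10 and 7 without pair 2, and 0 and 0 without pair 3, so the count rests on all 3 pairs. Ranked by fold enrichment, 0 of 23657 regions passed in either direction even with the block (1443 upwards and 920 downwards at an unadjusted p under 0.05). Of the 106, 61 (57.5%) lay within 1 kb of a start site, against 45.5% of all. The cell division lists held 25 of the 106, against 0 of the 293 and 155 of all 25076. Of the mitosis regions 20 of 67 passed and of the replication regions 5 of 48, all downwards, and without the genes already seen among the largest falls 10 of 53 and 2 of 43. Both lists were written after their falls under ERKi had been seen, so these counts and the medians that follow are a description and no test of the lists. The median change of the mitosis regions was -24.2 points under ERKi and -5.19 with DMSO, and that of the replication regions -17.4 and -3.38.

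Fosl1, an AP-1 subunit whose gene is a target of ERK signalling, differed in the same direction. Its region, in an intron 726 bp from the start at chr19:5447637-5449750, stood at 95.1, 87.9 and 90.2 at ERKi 4h and at 71.4, 69.6 and 61.9 at ERKi 24h. With DMSO it stood between 96.6 and 99.5 in all 6 libraries, near the top of the scale, which leaves little room for a rise to show. The ERKi change was a fall of 23.4 ± 3.01 points (adjusted p = 0.0116), and the difference from DMSO was -24.47 (adjusted p of the interaction = 0.0114).

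The 293 regions that passed upwards had a median change of -25.3 points with DMSO and of 3.44 under ERKi. Of these 293, 126 moved by less than 5 points under ERKi and 16 with DMSO, against 13750 and 13463 of all 25076 regions. Above 0 under ERKi and below 0 with DMSO were 190, against 5574 of all 25076. The rule picked the 293 for an ERKi change above the DMSO change, so their opposite signs and medians are no finding. A region 69124 bp upstream of Cpm, a membrane carboxypeptidase, stood at 66.0, 64.7 and 72.9 at ERKi 4h and at 65.4, 73.9 and 67.6 at ERKi 24h, but at 68.1, 70.5 and 70.6 and then 10.5, 26.6 and 13.9 with DMSO. Sik1, a salt-inducible kinase, had a region 76085 bp away at 89.7, 84.3 and 95.6 and then 92.7, 90.5 and 92.7 under ERKi, against 87.8, 86.3 and 96.7 and then 63.2, 63.5 and 70.0 with DMSO. In both the DMSO groups did not overlap and the ERKi groups did. Rbm38, Tmem65 and Pofut1 had the same pattern.

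**Figure D3:**
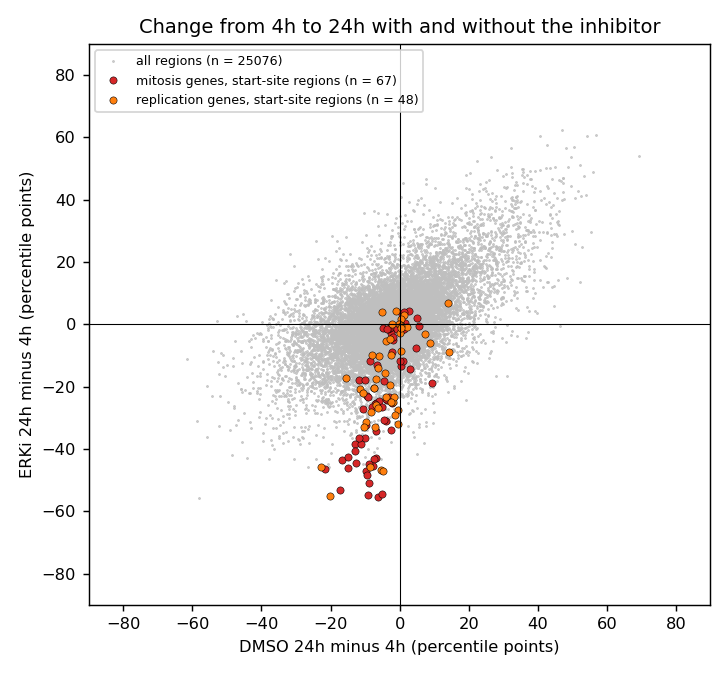
Difference in percentile between 24h and 4h under ERKi (y axis) and with DMSO (x axis), in percentile points, for 25076 regions (grey), with start-site regions of mitosis genes (red) and DNA replication genes (orange). The red and orange points have medians of -24.2 and -17.4 on the y axis and of -5.19 and -3.38 on the x axis.

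Over all 25076 regions the ERKi and DMSO changes went together (Pearson r = 0.554, a description across regions whose libraries share replicate numbers). With DMSO 42.7% of all 25076 were above 0, and 14358 regions were below. Of the 1175 rising regions ranked in all 12 libraries, 1049 (89.3%) were above 0 with DMSO, with a median of 15.7 against 24.0 points under ERKi. Of the 883 falling regions 793 were below 0 with DMSO, with a median of -9.97 against -21.3. The rule picked these regions for their ERKi change, so the larger ERKi medians are no finding.

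The largest rises lay away from start sites. In all of the 12 largest, ERKi 24h replicate 2 was below the other libraries of its group. The largest was 23715 bp from the start of Mterf, a regulator of mitochondrial transcription, where the percentiles were 28.8, 18.4 and 9.34 at ERKi 4h and 96.1, 75.7 and 96.7 at ERKi 24h (rise of 70.7 ± 6.07 points, adjusted p = 0.00755). A region in an intron of Akap9 had 34.6, 32.4 and 25.8 and then 94.99, 81.8 and 98.4. In Hmcn2, a gene of the hemicentin family of matrix proteins, 2 intronic regions rose, and the larger had 7.40, 6.37 and 5.46 and then 85.7, 55.2 and 81.3 (rise of 67.7 ± 6.37 points, adjusted p = 0.00755). It had no ranked peak at 0h or DMSO 4h and stood at 88.0, 63.5 and 82.9 at DMSO 24h. An intronic region of Dclk2, a microtubule-associated kinase, had 2.73, 14.1 and 3.38 and then 74.4, 60.5 and 78.7, against 37.5, 19.4 and 21.3 at DMSO 24h. An intronic region of Foxp1, a forkhead factor, rose by 60.9 ± 5.72 points (adjusted p = 0.00755). Those near Pi4kb, Myo18a, Emcn, 1700055N04Rik, Apob and Barhl1 rose by 60.4 to 64.1 points.

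The sequence around the summit of the Hmcn2 region, at chr2:31298566-31298766 in mm9 on the plus strand, is printed because the region had no ranked peak at 0h or DMSO 4h, and the base of the summit is in capitals.
Hmcn2: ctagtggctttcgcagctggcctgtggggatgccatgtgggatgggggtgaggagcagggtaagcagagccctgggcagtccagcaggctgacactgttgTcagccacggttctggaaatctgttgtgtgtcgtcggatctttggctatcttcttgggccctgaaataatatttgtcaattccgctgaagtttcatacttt

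Falls beyond 1 kb of a start site were fewer than rises there (655 against 1270), though more than falls within 1 kb (379). The distal ones among the 12 largest falls began high, which a large fall in percentile requires. A region 24656 bp from Gm11733 stood at 78.7, 72.7 and 79.9 at ERKi 4h and at 13.7, 7.81 and 26.2 at ERKi 24h (fall of 61.2 ± 4.26 points, adjusted p = 0.00755), and it had no ranked peak in any of the 3 DMSO 24h libraries. A region 18585 bp from Ermp1 on chromosome 19 had 98.4, 99.6 and 98.8 and then 27.4, 59.7 and 42.7 (fall of 55.7 ± 5.97 points, adjusted p = 0.00857). A region 126644 bp from Gnai1 was the other distal one among the 12 largest. Of Il33, an alarmin cytokine also on chromosome 19, 2 of 11 regions fell. At the Il33 promoter the percentiles were 95.1, 99.2 and 99.4 and then 69.6, 86.6 and 69.8, and at a region 55239 bp upstream 99.2, 98.6 and 99.5 and then 63.0, 75.1 and 73.3.

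Direct targets and feedback genes of TGF-β showed the highest share of rising regions among the lists with 30 or more regions, 22 of 189 (11.6%, against 4.91% of all), while 7 (3.7%, against 3.66%) fell. Beyond 1 kb of a start site, 7.74% of all regions rose and 3.99% fell. Most regions of this list and of those below lay that far away, and 0 of the 29 nearer ones of this list rose. These 29 had median percentiles of 94.8, 92.9 and 93.8 at ERKi 4h, so they had little room to rise. The risers were at Ldlrad4, a brake on Smad phosphorylation listed in the annotation as D18Ertd653e (5 of 12 regions), Cdkn2b, the p15 inhibitor of the cell cycle (4 of 16), Ctgf (4 of 20) and Smad7, the inhibitory Smad (3 of 19). A Smad7 region 87103 bp from the start had 31.2, 9.10 and 39.5 at ERKi 4h and 70.7, 52.3 and 79.0 at ERKi 24h (rise of 40.7 ± 3.80 points, adjusted p = 0.00755), and 62.2, 17.4 and 59.8 at DMSO 24h. A region 95355 bp from Nog, which encodes the BMP antagonist noggin, had 13.6, 6.37 and 1.25 and then 57.0, 55.2 and 70.8 (rise of 53.9 ± 5.90 points, adjusted p = 0.00895). The falls were at Id1 (4 of 6 regions), Id2 (2 of 11) and Smad6 (1 of 11), of which Id1 and Id2 are inhibitors of bHLH factors and targets of BMP signalling. Without replicate pair 2, 37 of 217 regions of the list rose and 17 fell.

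Ligands, receptors and Smads of the pathway had 7 risers and 1 faller of 116 (6.03% and 0.862%, against 4.91% and 3.66% of all 28282 regions). Tgfb3 had 39.5, 30.9 and 47.0 and then 76.2, 68.2 and 81.8 at an intronic region assigned to it (rise of 36.3 ± 3.83 points, adjusted p = 0.0081). Tgfbr3, the co-receptor betaglycan, had 15.5, 9.10 and 7.50 and then 66.1, 39.5 and 60.6. Eng, the endothelial co-receptor endoglin, had 2 risers of 5 regions. Smad3 had the only faller.

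Among transcription factors of EMT 8 of 86 regions rose (9.3%, against 4.91% of all) and 2 fell (2.33%, against 3.66%). Of the 86, 11 lay within 1 kb of a start and held 0 risers, and beyond 1 kb 7.74% of all regions rose. Foxq1 had 3 risers of 13 regions, and Lef1, Hmga2, Snai1, Sox4 and Zeb1 1 each. The Lef1 region began high and ended higher, at 83.3, 73.2 and 81.4 and then 97.9, 97.6 and 98.4 (rise of 18.7 ± 2.08 points, adjusted p = 0.00895). The Hmga2 region had 39.5, 9.10 and 45.1 and then 77.2, 70.9 and 78.7 (rise of 44.3 ± 6.05 points, adjusted p = 0.0126). Of Zeb1's 4 regions 1 rose and 1 fell, and Hmga1 had a faller.

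In the matrix list 11 of 113 regions rose (9.73%, against 4.91% of all) and 0 fell (against 3.66%), with 3 of 11 at Tnc, the matricellular protein tenascin C, and 1 each at Col18a1, Col7a1, Thbs1, Fbln2, Dcn, Loxl4, Cyr61 and Nov. Of the 113, 14 lay within 1 kb of a start and held 0 risers, and beyond 1 kb 7.74% of all regions rose. The Fbln2 region had 41.4, 34.0 and 51.3 and then 72.9, 68.2 and 76.7 (rise of 30.4 ± 4.06 points, adjusted p = 0.0122). In the actin list 10 of 157 rose (6.37%, near the 4.91% of all) and 0 fell, among them 2 each at Cald1, Myh9, Fhl2 and Cdh2 and 1 at Tpm1. A Tpm1 region had 9.52, 3.57 and 11.1 and then 38.8, 42.1 and 53.4 (rise of 36.7 ± 4.88 points, adjusted p = 0.0121). Without replicate pair 2, 3 matrix regions and 2 actin regions fell. The YAP-TEAD list had 10 risers and 2 fallers of 148 (6.76% and 1.35%), 4 of the risers at Ctgf and 2 at Wwtr1, which encodes the co-activator TAZ.

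Epithelial genes had regions that rose and regions that fell. In the junction and polarity list 13 of 167 regions rose and 4 fell (7.78% and 2.4%). These compare with 4.91% and 3.66% of all regions, and with 7.74% and 3.99% of those beyond 1 kb. The fallers were 2 of 6 regions at Cdh1, E-cadherin, and 2 of 5 at Crb2, an apical polarity protein. The start region of Cldn4, a claudin, had 43.2, 0 and 47.0 at ERKi 4h and 83.8, 77.8 and 92.8 at ERKi 24h. With a 0 in replicate 2 it was outside the fit, and the groups do not overlap. Prkci, an atypical kinase C of polarity, rose at its promoter from 48.2, 56.1 and 54.4 to 78.5, 76.2 and 79.7 (25.3 ± 4.09 points, adjusted p = 0.0192). Grhl2, a factor of epithelial identity, had 49.8, 46.9 and 51.3 and then 24.1, 29.1 and 9.26 at its start site. Among its upstream regions 1 rose, from 44.96, 32.4 and 55.9 to 74.2, 66.8 and 87.6, and another fell by 34.0 ± 4.68 points (adjusted p = 0.0127). Epithelial transcription factors together had 6 risers and 7 fallers of 152 (3.95% and 4.61%, both near the shares of all regions).

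Targets and partners of ERK gave small counts. AP-1 subunits and partners had 5 fallers (7.46%, against 3.66% of all) and 2 risers (2.99%, against 4.91%) of 67, the fallers at Fosl1 (2 of 2), Maff (2 of 6) and Fosb (1 of 8) and the risers at Maf. In ERK feedback genes and targets 10 of 166 regions rose and 5 fell (6.02% and 3.01%, near the shares of all). A region 228742 bp from Dusp4, an ERK phosphatase, had 47.4, 53.3 and 58.1 and then 1.34, 5.03 and 26.2 (fall of 42.1 ± 4.97 points, adjusted p = 0.0104). Dusp5, another, had 3 risers of 4 regions and Spry4, an inhibitor of the pathway, 2 fallers of 2, but for the first named region of each the sign turned when peaks were ranked by fold enrichment. The MAP kinase cascade had 2 risers and 4 fallers of 113 (1.77% and 3.54%), with 2 fallers at the scaffold Ksr1.

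The remaining lists held these counts of risers and fallers. They are to be read against 4.91% and 3.66% of all regions, and 7.74% and 3.99% of those beyond 1 kb. There were 7 and 6 of 89 for Notch (7.87% and 6.74%), with 5 of 15 regions rising at the ligand Jag1 and fallers at Notch1, Notch2 and Notch3. There were 12 and 4 of 148 for inflammatory genes (8.11% and 2.7%), 9 and 10 of 200 for receptor tyrosine kinases and ligands (4.5% and 5.0%), and 14 and 5 of 216 for Sox, Klf and forkhead factors (6.48% and 2.31%). There were 10 and 4 of 158 for cell cycle and growth arrest (6.33% and 2.53%). Unlike the mitosis and replication lists, that list was not added after the falls had been seen. Within 1 kb of a start 3 of its 37 regions fell (8.11%), with a median of -3.01 points. There were 5 and 3 of 96 for ETS and RUNX factors (5.21% and 3.12%), 5 and 2 of 112 for laminins, nidogens and integrins (4.46% and 1.79%), and 4 and 3 of 65 for metalloproteinases (6.15% and 4.62%). There were 3 and 5 of 112 for Wnt (2.68% and 4.46%) and 1 and 1 of 37 for keratins (2.7% and 2.7%). Markers of other cell types had 2 risers and 1 faller of 13. These were at Cdh5 and Dpt, neither with a peak at its start.

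**Figure D4:**
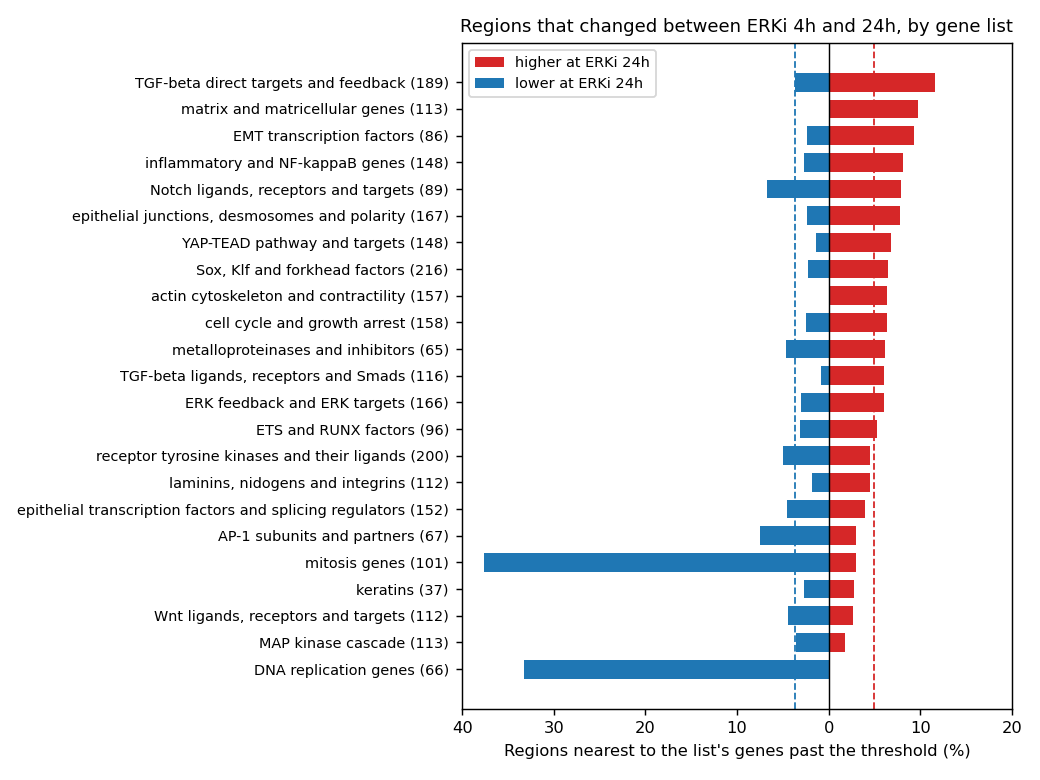
Share of ranked regions (x axis, percent) that rose (red, to the right) or fell (blue, to the left) from ERKi 4h to ERKi 24h with the replicate block, for each list with 30 or more regions (number of regions in brackets), and dashed lines mark the shares of all 28282 regions, 4.91% and 3.66%. The blue bars of the mitosis list (37.6%) and the DNA replication list (33.3%), here with their distal regions included, are the longest in the plot, and the TGF-β targets have the longest red bar (11.6%).

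The next count is of regions that held a peak in each library of 1 group and in no library of the other. There were 1510 called only at ERKi 24h (2.09% of 72236) and 578 called only at ERKi 4h (0.8%). Without ERKi 24h replicate 2 they were 6231 and 706, so that library decides the first count. Most lay far from start sites, 67.5% and 63.7% beyond 10 kb, and few in promoters, 3.71% and 8.65%. They ranked low in their own group, with a median percentile of 11.1 and 5.69. A peak of the other group's libraries lay within 1 kb of 11.6 to 16.2% of the 24h regions and of 24.0 to 30.8% of the 4h regions, so for these a peak of the other group stood close by.

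The regions called only at ERKi 24h were rare before TGF-β and common at DMSO 24h. They were called in 6.36% ± 1.62 of cases at 0h, 12.8% ± 6.12 at DMSO 4h and 58.7% ± 10.0 at DMSO 24h (SD, n = 3; exact permutation test of 0h against DMSO 24h, p = 0.1, the smallest possible). In all 3 DMSO 24h libraries 599 (39.7%) were called, 348 (23.0%) were also absent from every DMSO 4h library, and 0 switched the opposite way with DMSO. In no library at 0h or with DMSO 317 (21.0%) were called. The lists were longer at DMSO 24h (56759, 61890 and 68050 peaks) than at 0h (52221, 53603 and 59658) in each replicate. What list length adds to these low-ranked calls was not tested. The regions called only at ERKi 4h were called in 79.5% ± 7.46 of cases at 0h, 70.3% ± 15.3 at DMSO 4h and 30.1% ± 8.65 at DMSO 24h (exact permutation test of 0h against DMSO 24h, p = 0.1). In all 0h libraries 363 (62.8%) were called, and 8 in no library at 0h or with DMSO.

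**Figure D5:**
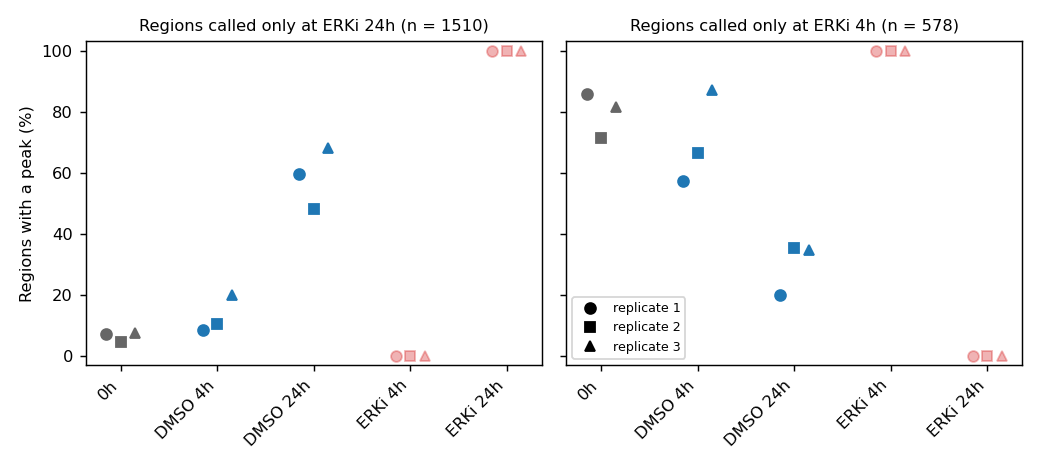
Share (y axis, percent) of the 1510 regions called only at ERKi 24h (left) and the 578 called only at ERKi 4h (right) that held a peak in each library, by condition (x axis), with 1 symbol shape per replicate, and the pale ERKi points are fixed at 0 and 100 by the selection. The left set rises from under 8% at 0h to 48 to 68% at DMSO 24h, and the right set falls from 71 to 86% to 20 to 35%.

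Among the highest regions called only at ERKi 24h were 2 in an intron of Itgb6, the β6 subunit of the integrin that activates latent TGF-β. The first, at chr2:60537346-60537848, stood at 86.9, 83.2 and 94.3 at ERKi 24h and at 84.4, 79.7 and 92.7 at DMSO 24h, had no ranked peak in the other libraries, and lay 2148 bp or more from any ERKi 4h peak. The sequence around its summit, at chr2:60537541-60537741 on the plus strand, is shown with the base of the summit in capitals.
Itgb6: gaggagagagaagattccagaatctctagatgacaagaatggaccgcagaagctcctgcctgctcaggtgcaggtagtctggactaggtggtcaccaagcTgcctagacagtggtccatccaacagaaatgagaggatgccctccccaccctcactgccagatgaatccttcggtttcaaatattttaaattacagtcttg

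The others were in introns of Slc35e3, Sfi1 and Ubtd1, near Aebp2 and Habp2, and at the promoter of Irak2, a kinase of Toll-like receptor signalling. Slc35e3 stood at 94.2, 97.8 and 91.1 at ERKi 24h and Ubtd1 at 97.2, 69.6 and 94.8. The Sfi1 region also had a peak at 84.5 in 0h replicate 2, and the locus holds repeated copies, so it is uncertain. At Irak2 and Habp2 a peak of all 3 ERKi 4h libraries lay within 1 kb. The highest regions called only at ERKi 4h were in introns of C030046E11Rik, Il33 and Gm12216, in a UTR of Gm17379, near Trib1 and Lgals2, at the promoter of Bcl2l1 and in an exon of A630055G03Rik, the last of which alone had no ERKi 24h peak within 1 kb in any of the 3 libraries. The Il33 region had 96.6, 98.6 and 99.4 at ERKi 4h.

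By nearest gene, Trpm3 had the most regions called only at ERKi 24h, 5, followed by Col27a1, Fam176a, Ghr, Lpp, Myc and Pde4d with 4 each. Myc and Lpp, with 32 and 28 ranked regions, also had 2 and 1 called only at ERKi 4h. Anxa3, Arhgap26, Fam135b, Rplp1, Sall3 and Wwox had 3 each called only at ERKi 4h. Of the 420 regions of TGF-β targets with a peak in any ERKi library, 17 were called only at ERKi 24h (4.05%, against 2.09% of all) and 1 only at ERKi 4h (0.238%, against 0.8%). Laminins, nidogens and integrins had 12 (4.2%) and 2 (0.699%) of 286, with 3 of the 12 at Itgb5 and 2 at Itgb6. EMT transcription factors had 9 (3.32%) and 2 (0.738%) of 271, with 3 of the 9 at Foxq1, 2 at Zeb1 and 1 at Zeb2. Wnt genes had 5 (1.69%) and 6 (2.03%) of 295 and inflammatory genes 4 (1.22%) and 5 (1.52%) of 328. Without ERKi 24h replicate 2 the first 3 lists had 44 (10.7%), 33 (11.7%) and 30 (11.1%) called only at ERKi 24h, against 8.75% of all, so their distance from all regions was then smaller in proportion. Wnt and inflammatory genes then had 28 (9.62%) and 20 (6.12%).

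The genes with the most rising regions were Spsb1, an adaptor of TGF-β receptor turnover (6 of 8 regions), and Tmem44 (6 of 10), followed by Ldlrad4, Eltd1, Gm22, Jag1 and Rdh10 with 5 each. At Spsb1 the region with the smallest p had 50.5, 27.7 and 54.4 and then 92.7, 77.8 and 94.0 (rise of 44.0 ± 4.13 points, adjusted p = 0.00755). It had no ranked peak at 0h. The genes with the most falling regions were Gm17379 (6 of 9), Ank, a pyrophosphate transporter (5 of 18), Fhdc1 (5 of 5), and Ankrd55, Fndc3b, Id1, St3gal3 and Tmem189 with 4 each. Regions of 1 gene lie near each other and are not independent.

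Summed over all regions nearest to a gene, on the scale log2(summed percentile + 50), 11884 genes were tested. Without the block 5 genes (0.0421%) were higher and 4 (0.0337%) lower at ERKi 24h, and with the block 0 and 0 (0.0% and 0.0%; 1204 and 1315 at an unadjusted p under 0.05; smallest adjusted p = 0.0684), so these calls depend on the fit. Among the higher genes were Trim45, C330011M18Rik, Emcn and 1700020N01Rik. Trim45 had sums of 78.8, 73.1 and 68.4 percentile units at ERKi 4h and 223, 197 and 223 at ERKi 24h (difference of 1.10 ± 0.0864 log2 units; limma adjusted p = 0.0459). Emcn, an endothelial sialomucin, had 117, 125 and 115 and then 256, 249 and 258 (0.85 ± 0.0787; limma adjusted p = 0.0459). The lower genes were Vps13d, Hsd11b1, Kcnab1 and Wwox. Hsd11b1, the enzyme that regenerates glucocorticoid, had 93.3, 91.1 and 112 and then 0.118, 12.8 and 4.498 (-1.42 ± 0.129; limma adjusted p = 0.0459). In each gene named here the groups were far apart. No gene of the lists passed in either fit.

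Of the 14 genes that the study names for H3K27ac, the region with the smallest p was taken for each. Hmga2, Shroom3, Itga2 and Jag1 rose and Wnt4 fell. Shroom3, a shaper of apical actin, had 11.6, 20.4 and 28.2 and then 58.5, 32.2 and 74.2 (rise of 34.9 ± 7.34 points, adjusted p = 0.0357), while with DMSO it had 22.9, 11.03 and 12.5 and then 0, 0 and 8.74. Itga2, the collagen-binding α2 integrin, had 31.2, 14.1 and 15.9 and then 59.4, 27.3 and 61.5 (rise of 29.0 ± 6.43 points, adjusted p = 0.0406), with replicate 2 of ERKi 24h inside the ERKi 4h range. The Jag1 region rose by 28.3 ± 4.00 points (adjusted p = 0.0133). Wnt4 had 61.1, 68.2 and 78.7 and then 47.0, 50.1 and 61.0 (fall of 16.6 ± 3.90 points, adjusted p = 0.0471), and its sign turned to 11.9 points when ranked by fold enrichment. Nid2 (2.78 points), Jak2 (-11.3), Id3 (-11.5), Cldn9 (3.50), Il11 (-1.23), Tgfbr1 (4.76), Lamb1 (-5.00), Cmtm8 (14.5) and Itgb3 (10.5) did not pass.

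Consensus letters were counted within 100 bp of summits on both strands. AP-1 letters (TGANTCA) stood in 8.48% of the regions called only at ERKi 24h, 5.19% of those called only at ERKi 4h and 5.63% of all regions called in an ERKi library. Beyond 1 kb from start sites they stood in 5.12% of the risers, 3.51% of the fallers and 5.12% of all ranked regions. CAGA boxes (CAGACA), which Smad proteins bind, stood in 21.3%, 17.3% and 19.4% of the first 3 sets and in 22.4%, 22.1% and 21.2% of the others. TEAD letters (GGAATG) stood in 10.9%, 12.5% and 10.8% and in 11.4%, 10.5% and 11.2%. None of these motifs contains another, although the ends of AP-1 and CAGA letters can share bases.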

How the data were processed

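H3K27ac ChIP-seq peak lists of 15 libraries were read, of which the 6 ERKi libraries carry the comparison; 10 RNA-seq and 3 input samples were not analysed here. The authors aligned reads to mm9 with bowtie, handled alignments with samtools and ran MACS2 on each library; the control used in calling is not given in the sources used here. The deposited lists give a fold enrichment (a ratio to local background), -log10 p and -log10 q, and a score that was not used; none is normalised between libraries. The peak-name number of ERKi 4h replicate 1 is out of order with the others.

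Pileup was solved from fold and -log10 p to within 0.005, except for 11 of 368568 ERKi peaks. Regions took their highest pileup, ranked among the 50000 highest peaks of a library. Genes came from GENCODE vM1 (NCBIM37, the assembly of mm9), as did start sites and sequences from that assembly, and 645 of 646 listed genes were matched. limma 3.58.1 in R 4.3.3 tested percentiles, and log2(summed percentile + 50) for genes, with Benjamini-Hochberg adjustment at 0.05. The unblocked fit was the planned one. Deviations of same-numbered ERKi libraries from their group means correlated by 0.5, 0.457 and 0.75 and those of other numbers by -0.565 to 0.281. The sources do not say that the numbers mark shared batches, so the pairing is inferred from the percentiles that were then tested. It was not checked in this way for the DMSO libraries. Blocked values are printed beside the unblocked ones. Exact permutation tests were two-sided. The fits were tested on simulated data. There, libraries with the same number shared a deviation by construction, so the simulation cannot show whether the block is right for the real libraries. Other steps used matplotlib 3.10.9, pandas 2.3.3, SciPy 1.17.1 and NumPy 2.4.6 under Python 3.11.15.

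Named by rule, for protein-coding nearest genes, were the 12 largest increases and 12 largest decreases that passed with groups apart, the 8 highest regions called in 1 group only and the 6 genes with most of them, up to 10 genes a direction by p in the gene fit, the 6 regions a direction with the smallest p for the difference from DMSO, and the 14 genes that the study names for H3K27ac. Regions given for the members of lists, and genes with most changed regions, were chosen after their values were seen, as were the mitosis and replication lists. The members and lists were chosen with earlier results of these data known. Alternatives were other rankings, filters, merging distances and library choices. Results for a few genes are not reported here.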

Additional observations from a re-analysis of the deposited data

Results flagged for a closer look

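In 12 named regions the change from 4h to 24h differed between ERKi and DMSO, by the interaction term of limma with the replicate block over 25076 regions (adjusted p = 0.0114 for each, and 0.0115 for Sik3). Without the block 0 regions passed upwards and 0 downwards (1128 and 480 at an unadjusted p under 0.05), so each of these differences rests on the pairing of the replicate numbers. They also rest on the ranking by pileup, since by fold enrichment with the block 0 regions passed in either direction. The ERKi change minus the DMSO change, in percentile points, was negative in 6. It was -49.11 at Ccnb1, -49.09 at Cit, -45.52 at Ube2c and -27.13 at Cenpm, genes of mitosis, -24.47 at Fosl1, and -36.53 at an intronic region of Sik3, a salt-inducible kinase, which rose with DMSO from 31.0, 46.3 and 38.5 to 59.3, 68.6 and 65.4. It was positive in 6, with 53.82 at Cpm, 48.01 at Mmp15, 40.74 at Rbm38, 39.38 at Tmem65, 26.76 at Sik1 and 21.79 at Pofut1. Of these, Mmp15, a membrane-type metalloproteinase, rose under ERKi from 38.6, 36.9 and 58.1 to 66.8, 66.0 and 86.1 and stood lower at DMSO 24h (8.69, 15.4 and 27.7) than at DMSO 4h (35.8, 30.7 and 43.8). The ERKi difference at Mmp15 turned to -4.475 points when peaks were ranked by fold enrichment, with or without the block.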

How the results depend on the processing

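The count of regions that passed among those ranked in all 6 libraries depended on the pairing. Without the replicate block it was 0 higher and 0 lower, and with the block 1389 and 1034. With the block it was 254 and 169 by -log10 p, 1721 and 646 over the whole lists, 2453 and 2396 by quantile-normalised log2 pileup, 1290 and 1101 when the shared regions were ranked anew, and 0 and 0 by fold enrichment. Without replicate pairs 1, 2 and 3 the blocked counts were 636, 2824 and 517 higher and 354, 2166 and 330 lower. Without the block it was 362 and 170 by quantile-normalised log2 pileup, 880 and 441 for regions in at least 3 of 6 libraries, 88 and 31 when regions within 1000 bp were merged and 150 and 205 with all 15 libraries in the fit. Leaving out 1 library without the block gave 0 to 30 higher and 0 to 5 lower, the highest values without ERKi 24h replicate 2.

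Regions called only at ERKi 24h numbered 639 at -log10 q of at least 10, and those only at ERKi 4h 202; merging peaks within 1000 bp left 374 of the latter. Leaving out 1 library gave 1717 to 6231 and 706 to 1249.

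The 5 higher and 4 lower genes were lost (0 and 0) with the replicate block, over whole lists, with a pseudocount of 10 percentiles and with peaks within 100 kb, each with and without the block where both were run, and without each replicate pair. By -log10 p 1 gene was higher and 3 were lower, and by fold enrichment 4 were higher and 2 lower, all 0 with the block. By the number of peaks 83 and 85 genes passed (55 and 66 with the block), and 57 and 42 among genes with a peak in at least 1 library. Leaving out 1 library gave 0 to 34 and 0 to 9. The regions that differed between ERKi and DMSO numbered 399 with the block. With the block they numbered 119 over whole lists, 989 by quantile-normalised log2 pileup and 0 by fold enrichment. There were 0 to 3 when 1 library was left out without the block. With the block there were 17 without pair 2 and 0 without pair 1 or 3.

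The intergenic share turned to -0.03069 without ERKi 4h replicate 2 and -0.465 without ERKi 24h replicate 3, and was at most 1.12 percentage points without another library, and 1.45 at -log10 q of at least 10. Ranked by fold enrichment, with or without the block, the difference turned sign at Mmp15 (-4.475), Spry4 (2.066), Dusp5 (-1.621), Cdh3 (-3.182), Pard3 (-3.006), Krt19 (8.358), Itgb1 (-8.608 and -7.537), a distal Jag1 region (-9.442), Mapk6 (-10.99), Wnt4 (11.94) and Ankrd55 (3.553), in percentile points, and for the gene sums of Nupr1 (-0.41), Bace1 (-0.0599) and Pik3c2g (0.332), on the log2 scale. Rplp1 turned to 0.125 with peaks within 100 kb. The cause was not tested. The lists hold no read totals, so what depth limits cannot be stated, and 3 libraries a group set the precision.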
